A study of Homo sapiens with 8 samples.

Results

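The genes described here are ACTB, ACTG1, PFN1, CFL1, TMSB4X, TMSB10, ARPC1B, ARPC3, LSP1 and CORO1A, which encode the 2 cytoplasmic actins and 8 proteins that bind actin or belong to an actin-binding complex. They were taken by symbol, and all 10 were found among the 17912 genes of the files. The set was chosen by name with its signal in SF153 and DMSO already known, LSP1 having been seen among the largest decreases. The difference between SF153 and DMSO is therefore given for these genes as a description, without a test. The libraries came from NKM-1, a human myeloid leukemia line labelled wild type and myeloid and grown in RPMI medium. SF153 cells received 30 uM of SF153, which the series title presents as an inhibitor of UHM splicing factors, and DMSO cells received the solvent, both for 48 h. There were 4 SF153 and 4 DMSO libraries, 2 of each in each of 2 batches, and a library is named here by batch and number, so that 2.1 is the first library of batch 2. The labels do not say whether libraries 1.1 and 1.2 came from separate cultures, so the spread within a treatment and batch may be purely technical. The spread behind the p-values of SF153 against DMSO is that between libraries. It also holds the difference between batches, and the 4 libraries of a treatment were counted as separate. Within a treatment, the library names of 1.1 and 1.2 share a leading number and carry the letters A and B. The names of 2.1 and 2.2 do so too.

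Actin exists as monomers and as filaments, and cells turn one into the other to move, divide and take up particles. Profilin (PFN1) hands monomers to growing filament ends, cofilin (CFL1) severs old filaments, and the beta-thymosins (TMSB4X and TMSB10) hold monomers in reserve. The Arp2/3 complex, of which ARPC1B and ARPC3 are subunits, starts new filaments as branches on existing ones. Coronin 1A (CORO1A) and LSP1 are filament-binding proteins of leukocytes, and blood cells use the whole system for migration and phagocytosis.

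Values are the deposited signal, a TPM-type measure per transcript length whose scaling between libraries is not stated in the labels or file headers. Column sums were 828381 to 1022007 in SF153 and 990815 to 1027119 in DMSO. The batch 2 SF153 libraries stood apart, with the lowest sums and with 16.8% of their signal in mitochondrial genes, against 9.17% and 9.92% in the batch 1 SF153 libraries and 9.38% to 9.63% in DMSO. The batch 1 SF153 libraries stood apart in the small nuclear RNA RN7SK, with 18.7% and 18.2% of their signal, against 11.4% and 12.1% in batch 2 SF153 and 11.7% to 13.9% in DMSO. Read depth is unknown. Of the 14 myeloid markers listed, 12 were in the files (ELANE and ANPEP were not listed there), with a summed signal of 1267 to 1577 in SF153 and 1776 to 2013 in DMSO. They did not move together. In the limma fit given below, 7 of the 12 were called lower, 2 higher (CD33 and ITGAM) and 3 were not called. Over all genes 24.3% were called lower and 13.0% higher. No erythroid or epithelial marker was listed in the files. The T and NK list was represented by CD2 and NKG7 (sum 49.6 to 104.6 in SF153, 94.9 to 125.5 in DMSO) and the B list by CD79A, CD79B and PAX5 (20.7 to 48.5 in SF153, 77.2 to 87.3 in DMSO). Of these, CD2, CD79A and CD79B were called lower in the same fit, and NKG7 and PAX5 were not called. PECAM1 alone of the fibroblast and endothelial list was present, at 15.7 to 24.2 in SF153 and 9.52 to 17.8 in DMSO. In bulk RNA, fewer cells of a type and less RNA per cell cannot be told apart, and the part of these marker levels in the results below was not tested.

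All 10 genes had a lower signal in every SF153 library than in any DMSO library. Their summed signal was 2452, 2432, 1435 and 1449 in SF153 libraries 1.1, 1.2, 2.1 and 2.2, against 6568, 6599, 5764 and 5696 in DMSO libraries 1.1, 1.2, 2.1 and 2.2. The sum made up 0.207% ± 0.039 of all signal in SF153 and 0.612% ± 0.059 in DMSO (SD, n = 4 each). Of signal in nuclear protein-coding genes alone, with mitochondrial genes left out, it was 0.538% ± 0.135 in SF153 and 1.25% ± 0.06 in DMSO. The median log2 difference of the 10 genes, SF153 minus DMSO on log2(signal + 1), was -1.78, and that of the 15542 genes averaging a signal of 1 or more was -0.03. Separation of all SF153 libraries below all DMSO libraries was found for 23.6% of those genes. In limma's moderated test with Benjamini-Hochberg adjustment over all genes, 24.3% of genes were called lower and 13.0% higher at an adjusted p below 0.05, and all 10 genes were among the lower. A call together with a log2 difference of -1 or less was found for 7.78% of genes, and again all 10 were among them. Since the genes were chosen with this contrast in view, nothing is read from these counts.

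**Figure D1:**
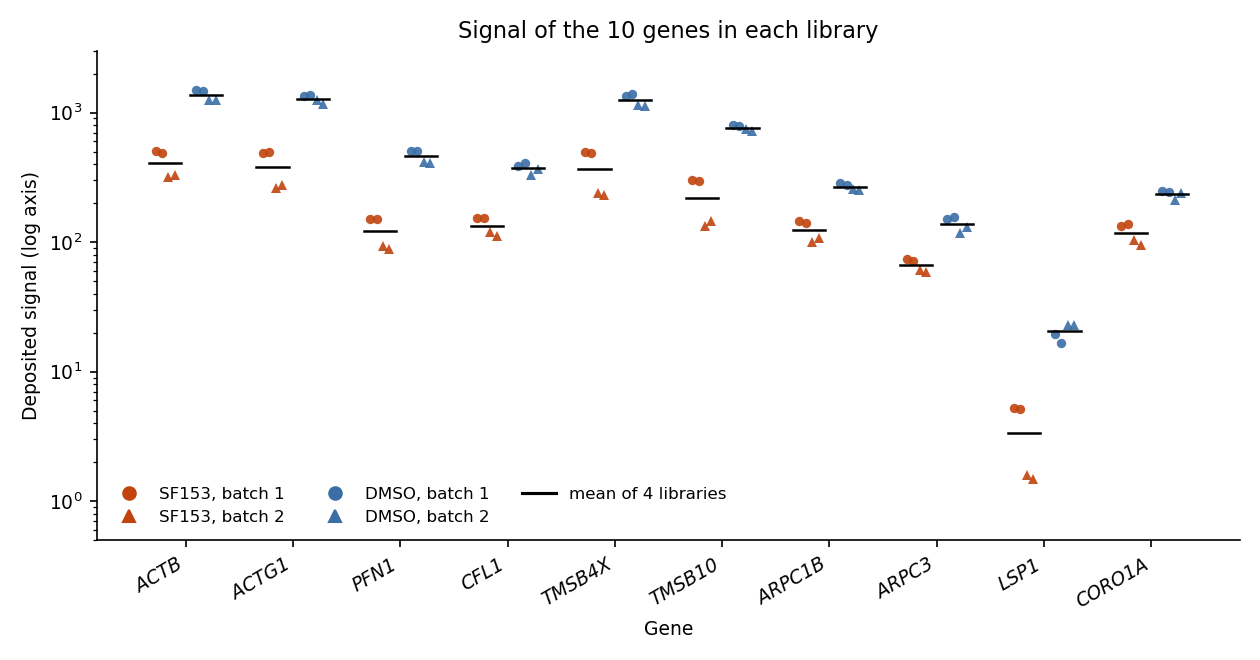
Deposited signal (log axis) of the 10 genes in each of the 4 SF153 (left of each pair) and 4 DMSO libraries. Circles are batch 1, triangles batch 2, and bars the mean of 4. For every gene the SF153 points lie below the DMSO points, and LSP1 lies far below the others in level, at means of 3.36 in SF153 and 20.5 in DMSO.

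The actins were the most abundant of the 10 together with TMSB4X. ACTB, beta-actin, on chromosome 7 (GRCh38 chr7:5527147-5563784, minus strand), had a signal of 501.7, 491.3, 320.4 and 331.3 in SF153 libraries 1.1 to 2.2, against 1488, 1465, 1260 and 1260 in DMSO. It ranked 33 of 15542 by DMSO mean, and its log2 difference was -1.76 ± 0.16 (SE). ACTG1, gamma-actin (chr17:81509971-81523847, minus strand), had 489.7, 498.9, 263.5 and 274.3 in SF153 and 1342, 1354, 1255 and 1173 in DMSO, a log2 difference of -1.81 ± 0.21 (SE). Both genes thus stood near 30% of their DMSO mean in SF153 (30.0% for ACTB and 29.8% for ACTG1), with the batch 2 SF153 libraries lowest.

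The coding sequences of the 2 actins were 91.2% identical (1029 of 1128 bases), and their longest shared run was 59 bases. Their first 60 coding bases are shown as a stretch in which the 2 genes differ, and the shared run of 59 bases lies elsewhere. Capitals mark bases that differ between the 2 genes. They were read from the GENCODE 29 transcripts ACTB-218 (GRCh38 chr7:5529598-5529657, minus strand) and ACTG1-206 (chr17:81512295-81512354, minus strand).
ACTB: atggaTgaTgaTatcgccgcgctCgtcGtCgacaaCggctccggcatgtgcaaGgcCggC
ACTG1: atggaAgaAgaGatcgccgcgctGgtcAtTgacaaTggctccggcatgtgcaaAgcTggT
In these 60 bases 10 positions differed, and how the authors treated reads that match both genes is not stated in the labels. The ACTG1 to ACTB signal ratio was 0.976, 1.015, 0.822 and 0.828 in SF153 libraries 1.1 to 2.2 and 0.902 to 0.996 in DMSO. The treatments overlapped in this ratio.

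The monomer-sequestering beta-thymosins had similar differences. TMSB4X (chrX:12975108-12977227, plus strand) had 500.0, 483.9, 240.9 and 232.4 in SF153 libraries 1.1 to 2.2 and 1342, 1392, 1151 and 1122 in DMSO, a log2 difference of -1.87 ± 0.26 (SE). TMSB10 (chr2:84905625-84906675, plus strand) had 299.1, 299.0, 132.0 and 146.6 in SF153 and 796.2, 780.7, 746.7 and 719.8 in DMSO, a log2 difference of -1.89 ± 0.26 (SE). In both genes the batch 2 SF153 libraries lay well under the batch 1 SF153 libraries.

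The complete coding sequences of the 2 thymosins are shown because these short genes, close in level and difference, differ at 37 of 135 bases, in capitals. Their longest shared run was 10 bases. They are spliced from transcripts TMSB4X-204 (coding bases within chrX:12976262-12976811, plus strand) and TMSB10-201 (within chr2:84906018-84906423, plus strand) of GENCODE 29 on GRCh38.
TMSB4X: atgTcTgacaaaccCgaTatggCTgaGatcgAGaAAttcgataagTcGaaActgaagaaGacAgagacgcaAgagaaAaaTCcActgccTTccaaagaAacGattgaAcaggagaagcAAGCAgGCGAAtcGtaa
TMSB10: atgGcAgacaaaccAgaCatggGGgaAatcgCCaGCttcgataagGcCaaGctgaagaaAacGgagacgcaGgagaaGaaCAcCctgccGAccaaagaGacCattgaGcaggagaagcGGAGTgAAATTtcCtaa
The TMSB10 to TMSB4X signal ratio averaged 0.599 ± 0.036 in SF153 and 0.611 ± 0.042 in DMSO (SD, n = 4 each), a difference smaller than the spread between libraries.

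Profilin and cofilin differed in size. PFN1 (chr17:4945652-4949061, minus strand) had 150.6, 150.5, 93.2 and 89.2 in SF153 libraries 1.1 to 2.2 and 508.4, 505.9, 416.0 and 409.5 in DMSO, a log2 difference of -1.96 ± 0.19 (SE). CFL1 (chr11:65823022-65862026, minus strand) had 152.7, 152.5, 120.2 and 110.8 in SF153 and 388.0, 409.1, 329.3 and 365.6 in DMSO, a log2 difference of -1.48 ± 0.12 (SE). The PFN1 to CFL1 ratio was 0.986, 0.986, 0.776 and 0.805 in SF153 libraries 1.1 to 2.2, against 1.31, 1.24, 1.26 and 1.12 in DMSO. Every SF153 ratio was below every DMSO ratio.

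The Arp2/3 subunits and coronin 1A had the smallest differences of the 10. ARPC1B, the subunit isoform prominent in blood cells (chr7:99374249-99394816, plus strand), had 145.8, 139.9, 99.4 and 107.8 in SF153 and 286.4, 276.1, 255.4 and 250.4 in DMSO, a log2 difference of -1.13 ± 0.13 (SE). ARPC3 (chr12:110434825-110450422, minus strand) had 74.7, 72.0, 61.1 and 59.2 in SF153 and 149.8, 155.7, 116.7 and 130.7 in DMSO, a log2 difference of -1.04 ± 0.11 (SE). CORO1A (chr16:30182827-30189076, plus strand) had 132.7, 138.6, 103.0 and 95.7 in SF153 and 247.9, 243.3, 210.4 and 241.5 in DMSO, a log2 difference of -1.01 ± 0.12 (SE). Relative to beta-actin, CORO1A was higher in SF153: the CORO1A to ACTB ratio was 0.264 to 0.321 in SF153 and 0.166 to 0.192 in DMSO, with no overlap. As a share of the summed signal of the 10 genes, CORO1A was 6.22% ± 0.81 in SF153 and 3.84% ± 0.27 in DMSO, and ARPC1B 6.52% ± 0.80 in SF153 and 4.34% ± 0.11 in DMSO (SD, n = 4 each). The ARPC3 to ARPC1B ratio, 0.548 ± 0.048 in SF153 and 0.516 ± 0.044 in DMSO, differed by less than the spread between libraries.

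LSP1, lymphocyte-specific protein 1, a filament-binding protein of leukocytes (chr11:1852970-1892267, plus strand), was the least abundant of the 10 and had the largest log2 difference among them with a pseudocount of 1 over both batches. Its signal was 5.22, 5.13, 1.60 and 1.48 in SF153 libraries 1.1 to 2.2, against 19.6, 16.6, 23.0 and 23.0 in DMSO. The SF153 libraries lay at 2 levels by batch, and in DMSO the batch 2 libraries were the higher ones. SF153 reached 28.6% of the DMSO mean in batch 1 and 6.69% in batch 2. The log2 difference of -2.43 ± 0.32 (SE) placed it 19th from the lowest of 15542 genes. For a gene of this level it varied with the pseudocount, at -2.80 with 0.1 added and -1.64 with 5 added. With 5 added, PFN1 (-1.92) and other genes of the 10 had larger differences, and in batch 1 alone PFN1 (-1.75) was also below LSP1 (-1.62). LSP1 was 3.93%, 3.70%, 1.55% and 1.55% of CORO1A in SF153 and 7.90%, 6.81%, 10.9% and 9.52% in DMSO, so that these filament-binding genes did not keep a constant ratio.

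**Figure D2:**
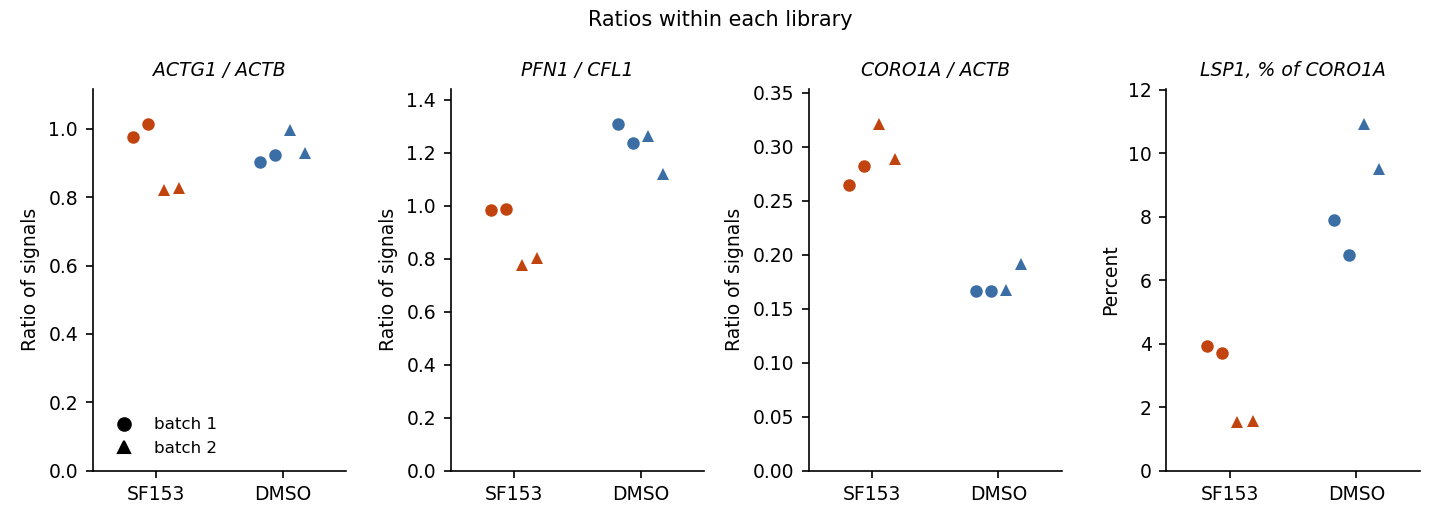
Ratios of signals within each library (linear axes from 0), SF153 left and DMSO right, circles batch 1 and triangles batch 2. ACTG1 to ACTB overlapped between treatments. PFN1 to CFL1 was below and CORO1A to ACTB above every DMSO library in SF153, and LSP1 as a percentage of CORO1A was lowest in batch 2 of SF153, at 1.55%.

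The batches were then compared, a contrast that the choice of genes did not use, although the size of their decrease was known. The SF153 minus DMSO difference was below 0 in both batches for all 10 genes, and larger in batch 2 for 9 of them. For LSP1 it was -1.62 in batch 1 and -3.24 in batch 2, an interaction of -1.62 ± 0.22 (SE; limma adjusted p = 0.0139). TMSB10 had -1.40 in batch 1 and -2.39 in batch 2 (interaction -0.99, limma adjusted p = 0.00176). TMSB4X had -1.47 in batch 1 and -2.26 in batch 2 (interaction -0.79, limma adjusted p = 0.00175). The batch 2 SF153 libraries were the lowest of all 8 in these 3 genes, as they were in each of the 10 genes.

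The actins and profilin also passed this test, with interactions of -0.72 for ACTG1 (limma adjusted p = 0.00237), -0.38 for ACTB (0.0219) and -0.42 for PFN1 (0.0476). CFL1, ARPC1B, ARPC3 and CORO1A did not, with interactions of -0.20, -0.31, 0.02 and -0.32 and limma adjusted p values of 0.278 to 0.974. In all, 6 of 10 genes were called as lower in batch 2, where 0.997% of all 15542 genes were, and the median interaction was -0.40 for the 10 genes and -0.03 for all genes. All genes are an unlike background here, since their median SF153 minus DMSO difference was -0.03 and that of the 10 genes -1.78. Whether other genes with so large a decrease differed as much between batches was not tested. The fit rests on 2 libraries per treatment and batch, which may be libraries of 1 sample, so differences between cultures are not in its error. The low column sums and high mitochondrial share of SF153 in batch 2, and the high RN7SK share of SF153 in batch 1, moved with this result, and their part in it was not tested. With every library scaled to one sum, 3 of the 10 were called (TMSB4X, TMSB10 and LSP1), and the interaction of ACTB was -0.06 (limma adjusted p = 0.619). Under that scaling 58 of all genes were called lower in batch 2 and 107 higher. The median interaction was then -0.08 for the 10 genes and 0.255 for all genes. Without an intensity trend in the variance prior, limma called 0 of the 10 and 12 genes in all, with 6 of the 10 at an unadjusted p below 0.05 and the lowest adjusted p, that of LSP1, at 0.0624. With any 1 library left out, 3 or 4 were called; ACTG1, TMSB4X and TMSB10 were called in all 8 such fits, ACTB and LSP1 were called in 1 each, and PFN1 did not pass in any (limma adjusted p 0.0809 to 0.210).

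**Figure D3:**
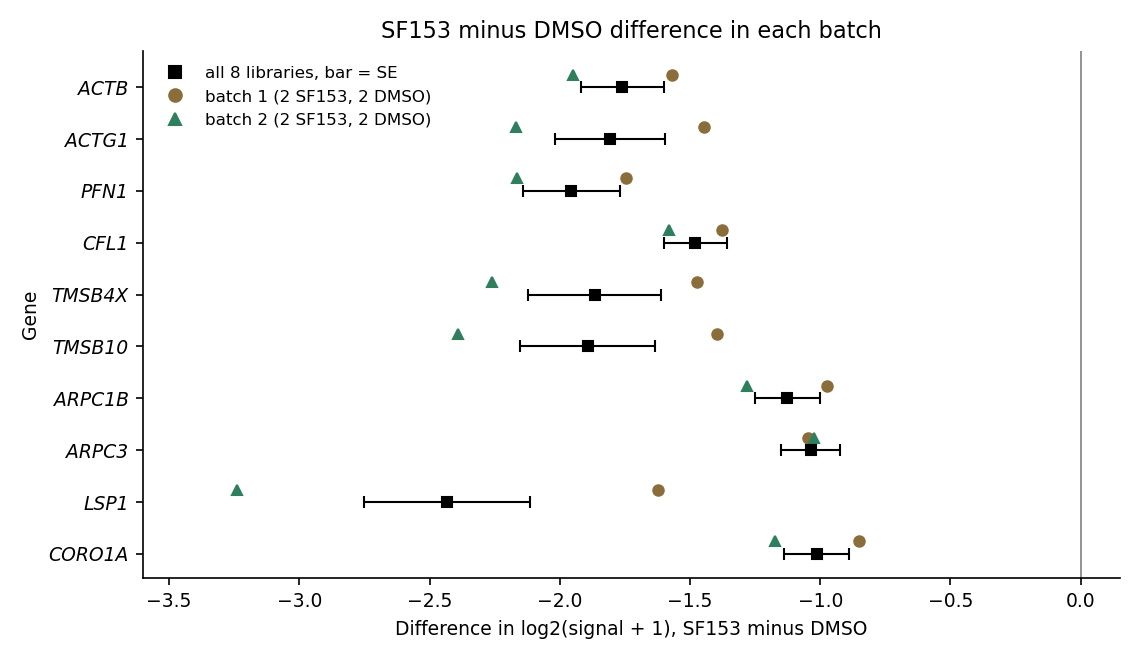
Difference in log2(signal + 1), SF153 minus DMSO, of each gene over all 8 libraries (squares, bars are SE) and in batch 1 (circles) and batch 2 (triangles), each with 2 SF153 and 2 DMSO libraries. All points lie below 0. The batch points of LSP1 are farthest apart, at -1.62 and -3.24, and those of ARPC3 nearly coincide.

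The other genes of the actin system were taken from lists of 110 genes, of which 95 were in the files and 94 passed the filter on low values. In the same limma fit, with adjustment over all genes, 50 fell, 5 rose and 39 did not pass the test. Their median log2 difference was -0.44, against -0.03 for all genes tested and against a background of 24.3% called lower and 13.0% called higher. Among the 759 nuclear protein-coding genes averaging a signal of 100 or more, the share called lower was 50.7%. The 94 genes were not held to that level, so this share is not a background matched to them. The split of the cytoskeleton genes depended on scaling. With the libraries rescaled without mitochondrial and small RNA genes it was 37 lower and 22 higher, and with quantile normalization 41 lower and 17 higher. Over all genes tested, 34.8% of called genes were higher in the deposited scaling, 43.8% with median-of-ratios factors, 47.3% with equal sums, 53.4% after quantile normalization, 53.2% after removal of a trend with length and level, and 72.0% with mitochondrial and small RNA genes left out.

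All 7 other Arp2/3 genes fell (4 to 7 under the other scalings). ARPC5, a subunit of the complex, had 23.8 ± 6.72 in SF153 and 84.9 ± 9.63 in DMSO (SD, n = 4 each), a log2 difference of -1.82 ± 0.18 (SE; limma adjusted p = 7.5e-05). ACTR2, the actin-related protein Arp2, had 34.1 ± 6.94 in SF153 and 113.99 ± 14.0 in DMSO, a log2 difference of -1.73 (limma adjusted p = 4.27e-05). Of 15 activators of the complex tested, 3 fell, 1 rose and 11 did not pass, with a median of -0.05, a share of lower calls near the 24.3% of all genes. Under the other scalings 1 to 3 of them were called lower and 2 to 7 higher. BRK1, the small subunit of the WAVE complex, fell by 1.77 on the log2 scale and WASF2, its WAVE2 subunit, by 0.44, while CYFIP1, a large subunit of the same complex, rose by 0.37 (limma adjusted p = 0.0181; 0.0685 in batch 1 alone, 0.142 in batch 2 alone and 0.0734 with libraries averaged). The WASF2 call was kept in 9 of 14 alternatives. Among the scalings it was lost with equal sums (limma adjusted p = 0.146), with quantile normalization (0.102) and after leaving out mitochondrial and small RNA genes (0.495).

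Of 8 formins, which build unbranched filaments, 2 fell and 1 rose, shares close to the 24.3% lower and 13.0% higher of all genes. Under the other scalings 1 was called lower and 1 to 4 higher. DIAPH1 had 112.4 ± 16.9 in SF153 and 234.2 ± 7.01 in DMSO, a log2 difference of -1.06 (limma adjusted p = 7.4e-05), whereas FMNL2 had 10.5 ± 1.32 in SF153 and 6.09 ± 1.32 in DMSO, a log2 difference of 0.70 (0.00702; 0.179 in batch 1 alone). DIAPH3, at -0.48, was not called under any of the 5 other scalings, and its call was kept in 7 of 14 alternatives. Among 17 genes of monomer binding and filament turnover 7 fell and 1 rose (6 to 7 lower and 1 to 2 higher under the other scalings). DSTN, destrin, a relative of cofilin, had 2.59 ± 0.63 in SF153 and 10.1 ± 2.12 in DMSO, a log2 difference of -1.63. GMFG, which detaches Arp2/3 branches, had 63.5 ± 9.97 in SF153 and 177.9 ± 20.3 in DMSO, a log2 difference of -1.48. SSH3, a slingshot phosphatase, rose by 0.53 (limma adjusted p = 0.0319, and 0.359 in batch 2 alone). The SSH3 call was kept in 12 of 14 alternatives.

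Capping and severing genes fell in 6 of 9 cases, among them GSN, gelsolin, at 40.9 ± 9.61 in SF153 and 94.7 ± 9.28 in DMSO (log2 difference -1.22), and CAPG, a macrophage capping protein, at 81.0 ± 15.8 in SF153 and 155.7 ± 14.0 in DMSO (-0.95). Of 16 crosslinkers and membrane linkers 10 fell. Both counts stand beside 24.3% called lower over all genes. Under the other scalings 5 to 6 of the capping and severing genes and 8 to 9 of the crosslinkers were called lower, and up to 2 of each list higher. TAGLN2, transgelin 2, had 24.9, 22.9, 13.5 and 14.2 in SF153 libraries 1.1 to 2.2, against 80.8 to 100.6 in DMSO, and its log2 difference of -2.26 ± 0.19 (SE; limma adjusted p = 4.56e-05) was the lowest of the 94. MARCKSL1, a membrane-associated actin-binding protein, fell by 1.77. FLNA, filamin A, a large crosslinker, had 236.6 ± 25.7 in SF153 and 258.7 ± 27.7 in DMSO, and did not pass (limma adjusted p = 0.35). After quantile normalization FLNA was called higher, with a log2 difference of 0.43. It is named after its value was seen.

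Of 14 myosins and tropomyosins 8 fell and 2 rose, where 24.3% of all genes were called lower and 13.0% higher. Under the other scalings 5 to 7 of them were called lower and 3 to 5 higher. The light chain gene MYL12B had 11.6 ± 4.93 in SF153 and 51.4 ± 3.22 in DMSO, a log2 difference of -2.15 (limma adjusted p = 0.000218), and the light chain gene MYL6 had 100.6 ± 31.6 in SF153 and 275.8 ± 45.6 in DMSO, a log2 difference of -1.49 (0.000558). TPM2, beta-tropomyosin, went the other way in every library: 51.5, 56.6, 54.2 and 56.6 in SF153 and 22.1, 26.5, 25.7 and 23.6 in DMSO. Its log2 difference was 1.13 ± 0.08 (SE; limma adjusted p = 2.4e-05), and it stayed between 1.02 and 1.57 over 14 alternatives. MYO1F, a leukocyte class I myosin, had 298.3 ± 4.67 in SF153 and 238.0 ± 13.7 in DMSO, a log2 difference of 0.33. Its limma adjusted p was 0.00302, and 0.084 with the libraries of one treatment and batch averaged. The MYO1F call was kept in 12 of 14 alternatives. MYH9, a non-muscle myosin heavy chain, had 238.5 ± 36.5 in SF153 and 301.5 ± 13.7 in DMSO, a log2 difference of -0.35 (limma adjusted p = 0.0281) that turned to 0.26 (0.0177) after quantile normalization. It was named because it was the 1 gene of the 94 whose call turned round under a scaling, and also the 1 of the 94 that passed the batch interaction test (-0.48, limma adjusted p = 0.0476).

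On lists of another kind, 8 of 16 leukocyte actin regulators fell and 2 rose, and 7 of 12 genes linked to the SRF and MRTF transcription factors fell, beside 24.3% lower and 13.0% higher over all genes. The leukocyte count largely repeats the earlier ones. Every leukocyte regulator that fell is also among the 94 genes above. Of the leukocyte regulators outside the 94, PSTPIP1 rose by 0.66, and DOCK2, DOCK8 and CYTIP did not pass. VCL, TPM1, TPM4, TLN1, FLNA and MYH9 of the SRF and MRTF list are among the 94 as well, and of these VCL, TPM4 and MYH9 fell. Outside the 94, SRF, ZYX, CNN2 and ACTA2 of that list fell, and MRTFA and TAGLN did not pass.

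Actin genes are textbook targets of serum response factor (SRF), which binds the CArG box and is switched on when free actin monomers run low. SRF itself fell, with 5.69 ± 1.06 in SF153 and 9.55 ± 0.60 in DMSO (log2 difference -0.67, limma adjusted p = 0.0039), whereas its partner MRTFA had 73.2 ± 7.95 in SF153 and 78.1 ± 6.72 in DMSO and did not pass (-0.10, adjusted p = 0.478). The smooth muscle actin gene ACTA2 was the only other actin listed in the files; it had 5.26, 8.01, 3.44 and 4.43 in SF153 and 9.73, 8.14, 7.82 and 10.3 in DMSO. It fell by 0.71 (limma adjusted p = 0.0239).

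RefSeq promoter windows, 250 bases before to 50 after the start on GRCh38.p14, were at hand for 7 of the 10 genes (ACTG1, PFN1, CFL1, TMSB4X, TMSB10, ARPC3 and CORO1A). A CArG box on either strand was found in 1 of these 7, ACTG1, and in 1.29% of all 35116 windows. The 200 bases before its start site (GRCh38.p14 chr17:81512800-81512999, minus strand) are shown because they hold the box, in capitals, whose first base lies 94 bases before the start.
ACTG1 promoter: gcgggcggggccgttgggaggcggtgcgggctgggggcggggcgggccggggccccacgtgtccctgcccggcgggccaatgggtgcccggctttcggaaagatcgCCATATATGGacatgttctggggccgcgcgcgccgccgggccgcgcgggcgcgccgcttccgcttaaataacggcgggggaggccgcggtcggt
The motif GGGCGG, on either strand, was in all 7 windows and in 45.0% of all windows, and CCAAT was in 2 of the 7 and in 34.6% of all. These matches describe letters in the windows and were not tested as binding sites.

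Transcript length moved with the differences over the larger sets of genes, but not over the 10 genes, whose Spearman correlation of difference with length was -0.09. Of the cytoskeleton genes whose longest GENCODE 29 transcript was under 3000 bases, 26 of 32 fell (median -0.92), against 24 of 62 longer ones (median -0.24). Across the 94 genes the Spearman correlation of difference with length was 0.48, and across 11044 protein-coding genes 0.24, as a description over genes that share the same libraries. Among all protein-coding genes under 1000 bases 64.2% were called lower, and of those of 5000 bases or more 21.2%. The transcripts of the 10 genes ran from 496 bases for TMSB10 to 2640 for LSP1. With a trend in length and level removed, the 10 genes lay between -2.27 for LSP1 and -0.48 for CORO1A, with a median of -1.10. Among the 759 abundant nuclear protein-coding genes, averaging a signal of 100 or more, the median difference was -0.26 and 50.7% were called lower.

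**Figure D4:**
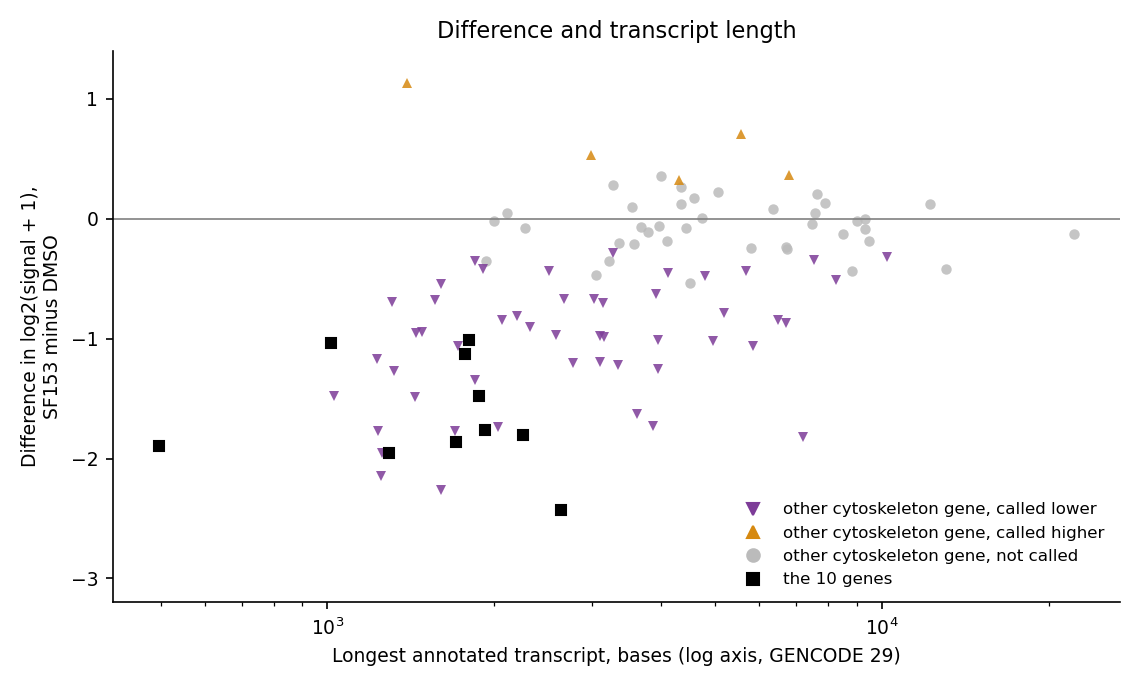
Difference in log2(signal + 1), SF153 minus DMSO, against the longest annotated transcript (log axis, bases) for the 10 genes (squares) and 94 other actin cytoskeleton genes (triangles where called, grey circles where not). The shorter genes lie lower, with a Spearman correlation of 0.48 over the 94, and TPM2 is the highest point, at 1.13.

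The differences of the 10 genes were below 0 under each of the 5 other scalings. The span was widest for the most abundant genes: ACTB was at -0.74 and TMSB4X at -0.90 after quantile normalization, compared with -1.76 and -1.87 as deposited. LSP1 stayed between -2.27 and -2.43 over the scalings. Their median was -1.71 with median-of-ratios factors, -1.65 with equal sums, -1.44 with mitochondrial and small RNA genes left out, -1.10 with the trend removed and -0.87 after quantile normalization. The median of all genes shifted up by 0.07, 0.12, 0.32, 0.08 and 0.10 under these scalings in the same order.

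**Figure D5:**
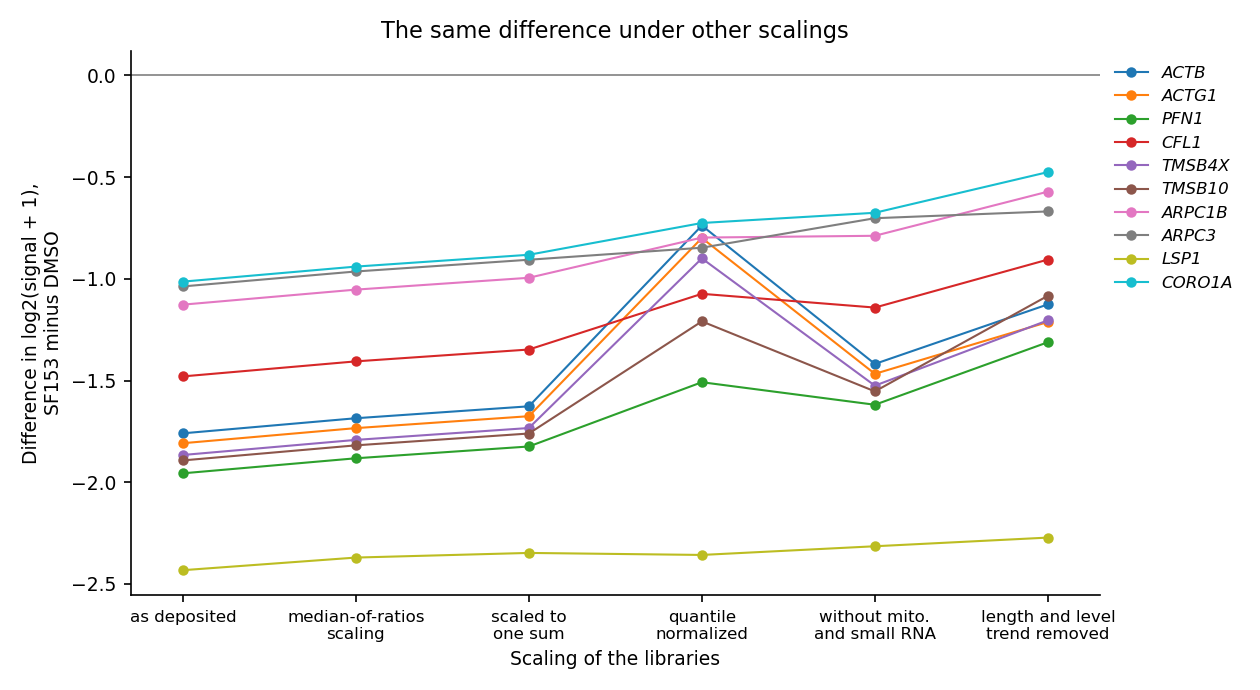
Difference in log2(signal + 1), SF153 minus DMSO, of each of the 10 genes as deposited and under 5 other scalings of the libraries. Lines join values of 1 gene. All values lie below 0, LSP1 stays lowest throughout, and ACTB moves to -0.74 after quantile normalization.

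Genes whose level followed LSP1 most closely over the 8 libraries were sought by Pearson's r among the 8570 genes averaging a signal of 10 or more. The top 5 were TMEM97 (0.998), ARCN1 (0.994), ROMO1 (0.994), H2AC12 (0.994) and SMARCA2 (0.993). TMEM97 averaged 5.94 in SF153 and 17.3 in DMSO, and SMARCA2 195 in SF153 and 260 in DMSO, so that genes of very different size of change are among them. The other 9 genes had r of 0.939 (ARPC3) to 0.989 (TMSB10) with LSP1. These r are a description over 8 libraries that form 4 sets, by treatment and batch.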

How the data were processed

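Total RNA was depleted of ribosomal RNA and sequenced as strand-marked libraries, per the labels' protocols. The authors deposited a signal per gene that the labels call both CPM and TPM; column sums differ, so it is treated as a TPM-type signal and not as plain TPM, which the plan had assumed. CASAVA 1.8.2, STAR, Salmon, edgeR and GRCh38 are named, without roles, per the submitters' processing notes. No read totals could be recovered, so depth and counting error are unknown. No value column was left unused.

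The members and gene lists were chosen with earlier results of these data known. Differences were fitted on log2(signal + 1) by limma 3.58.1 (R 4.3.3) for 15542 genes with a mean of at least 1, 4 SF153 against 4 DMSO libraries, with an intensity trend and no batch term; calls were made at a Benjamini-Hochberg adjusted p below 0.05. The interaction fit added batch and treatment by batch. Both fits were tested on simulated data. Named genes were the members, up to 2 lower and 2 higher called genes of each cytoskeleton list with the largest difference on the same side in both batches, the 5 genes most like LSP1, up to 3 pseudogenes, SRF, MRTFA, MRTFB (not among the genes tested) and other actins; exceptions are stated where they occur. The result of 1 cytoskeleton list, whose genes are in the totals, is not reported here. Lengths and positions came from GENCODE 29 on GRCh38, matched for 17235 of 17912 identifiers, and sequences from GENCODE 29 and RefSeq.

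The labels give a shared batch number, so libraries are paired by batch. Deviations of same-numbered libraries from their group means correlated weakly across genes (Pearson r 0.005 to 0.059). Alternatives covered the pseudocount, filter, scaling, variance model, batch and single libraries; scaling to one sum was added after seeing the data.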

Additional observations from a re-analysis of the deposited data

Results flagged for a closer look

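The difference between batches stood out for 6 of the 10 genes in the treatment by batch test of limma. The interaction, batch 2 minus batch 1, was -1.62 for LSP1, -0.99 for TMSB10, -0.79 for TMSB4X, -0.72 for ACTG1, -0.42 for PFN1 and -0.38 for ACTB. In SF153 the batch 2 mean of LSP1 was 29.8% of the batch 1 mean, and in DMSO it was 127.2%. For TMSB10 the same share was 46.6% in SF153 and 93.0% in DMSO. The low column sums and the mitochondrial share of 16.8% in the batch 2 SF153 libraries, and the RN7SK share of 18.2% and 18.7% in the batch 1 SF153 libraries, moved with these values, and their part in them was not tested.

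A DMSO library lay apart from the other 3 in CORO1A, where library 2.1 had 210.4 and the others 241.5 to 247.9, a gap of 0.83 of the range. In the CORO1A to ACTB ratio, DMSO library 2.2 had 0.192 and the others 0.166 to 0.167, a gap of 0.97 of the range. Chance flags about 1 in 20 such groups, and 2 of the 38 sets of 4 tested, over the genes' signals, sums and ratios, were flagged.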

How the results depend on the processing

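The 10 genes were lower in SF153 under all 22 alternatives; their median was -1.44 without mitochondrial and small RNA genes, -1.10 with the length and level trend removed, -0.87 after quantile normalization, -1.42 in batch 1 alone and -2.06 in batch 2 alone. The count of all genes called, 5785, fell to 3429 with averaged libraries, 3131 in batch 1 alone and 3315 in batch 2 alone, designs with fewer samples. With averaged libraries the SE of the log2 difference was 0.24 for ACTB and 0.42 for LSP1, against 0.16 and 0.32 in the main fit. Cytoskeleton genes called higher, 5 as deposited, numbered 8 with median-of-ratios factors, 17 after quantile normalization, 22 without mitochondrial and small RNA genes, 8 with one sum, 11 with the trend removed, 2 with averaged libraries and 2 in batch 2 alone; the cause was not tested. The members called in the interaction numbered 3 with one sum, 0 without the intensity trend and 3 to 4 with a library left out. With one sum the interaction turned to 0.12 for CFL1 and 0.013 for ARPC1B. That of ARPC3, 0.02, ranged from -0.058 to 0.10 with a library left out and was also below 0 without SF153 1.2 (-0.0040) and without DMSO 1.2 (-0.0046). With batch as a replicate block, 5943 genes were called, 52 cytoskeleton genes fell and 6 rose. The 50 lower and 5 higher cytoskeleton calls of the main fit were all kept, and all 10 genes were called lower. Calls of the markers and of other genes outside these lists were not repeated with the block. Unknown depth limits LSP1 most, since its lowest values, 1.48 and 1.60, are near the pseudocount.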

Other observations

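Pseudogenes of these genes were not lower in SF153 as a sum. The 12 in the files had summed means of 72.7 in SF153 and 51.0 in DMSO. CFL1P5 had 17.0 to 22.9 in SF153 and 12.7 to 15.2 in DMSO, and ACTBP4 had 14.2 to 22.4 in SF153 and 10.0 to 11.0 in DMSO, without overlap. ACTG1P20 had 5.97 to 11.3 in SF153 and 4.29 to 8.04 in DMSO, with overlap. In DMSO, CFL1P5 stood at 3.66% of CFL1 and ACTBP4 at 0.769% of ACTB, and the longest run that CFL1P5 shares with its parent transcript was 46 bases. How reads shared between parents and pseudogenes were assigned is not stated in the labels. The antisense gene CORO1A-AS1 had 1.06 to 3.29 in SF153 and 0 to 2.31 in DMSO.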
